A study of Mus musculus with 2 samples.

Results

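The genes described here are 8 transcripts of B cells and of the antibody-secreting plasma cells that B cells become. They are *Igkc*, *Igha* and *Ighg2b* (immunoglobulin chains), *Jchain* and *Mzb1* (antibody assembly), and *Cd79a*, *Cd79b* and *Ms4a1* (the B cell surface). They were chosen by name, and all 8 were among the 19465 genes measured in both sections. A B cell carries its antibody in the membrane, where the CD79A and CD79B proteins pass its signal inward. A plasma cell makes immunoglobulin RNA in very large amounts, so that a few such cells can dominate the immunoglobulin signal of a tissue. Plasma cells that secrete IgA are best known from the gut and other mucosae, and have also been described in the meninges.

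The samples were formalin-fixed cerebellar sections of 2 biological replicates, 1 untreated mouse each, with tumors grown from HP organoids. HP organoids are mouse mammary tumor organoids with mutant *HER2* and *PIK3CA* alleles, put by stereotactic injection into the cerebellum of immunocompetent B6 mice. Both samples carry the genotype HP, while their titles call the organoids HP-F1 in replicate 1 (section 1) and HP-B6 in replicate 2 (section 2), each "+cre". Transcripts were read with Visium CytAssist, which hybridizes probes to mouse transcripts in the fixed tissue, transfers them to a grid of spots with known barcodes and counts each probe molecule once, as a unique molecular identifier (UMI). A spot usually covers more than 1 cell, so fewer cells of a type and less RNA per cell cannot be told apart.

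Spots were placed in 3 regions by the share of UMIs from a list of neural genes. Tumor spots lay in a connected mass with a share under 0.387% of UMIs, neural spots lay outside it, and edge spots lay within 2 array steps of the border on either side. Section 1 had 638 tumor, 247 edge and 2424 neural spots, and section 2 had 644, 380 and 2865. The regions held from 7975288 to 34581372 UMIs, with a median per spot of 57030.5 and 42842.5 in tumor against 7692.5 and 9803 in neural spots. The tumor of section 1 went against its label on 1 count: its 12 epithelial genes summed to 54.3 CPM (UMIs per 1000000 UMIs of the region), near the 37.3 of its neural spots and far from the 12918 in the tumor of section 2. Its 10 fibroblast and meningeal genes summed to 56025 CPM, against 655 in section 2. The word tumor therefore stands below for the mass poor in neural genes, and what the fibroblast genes have to do with the results of section 1 was not tested.

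Both masses held these genes in different places. In section 1 all 8 genes were highest in the tumor, where they summed to 1151 CPM, against 77.6 at the edge and 41.9 in neural tissue. In section 2 the tumor held the least, 16.2 CPM, the edge held 265, and neural tissue 28.2. The ratio of section 1 to section 2 in the tumor was 71.2, with a 95% Poisson interval of 64.8 to 78.4. At the edge the order of the sum was the other way, with section 2 higher 3.42-fold, through *Igkc*, *Igha* and *Jchain*. *Ighg2b*, *Mzb1*, *Cd79a*, *Cd79b* and *Ms4a1* were higher in section 1 there too, from 1.82-fold for *Mzb1* (interval 0.876 to 3.90) to 7.66-fold for *Cd79a*. There is 1 section per replicate, so these ratios have no test, and the intervals cover counting error alone. The tumor ratio depended on where the tumor was drawn: it was 14.9 with the mass set by total UMIs per spot, which gave section 2 a tumor of 963 spots. Over all kept spots, edge and neural spots included, the ratio of the sections was 11.1.

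**Figure D1:**
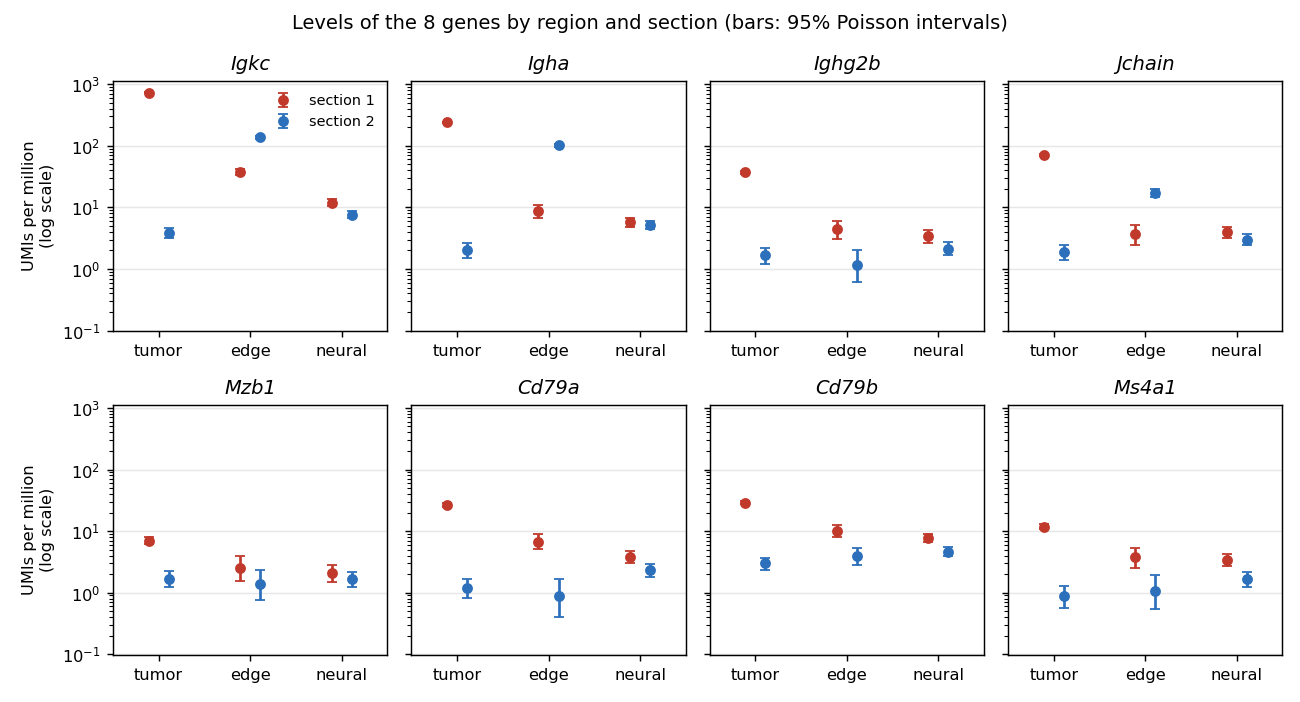
Level of each gene in CPM (log scale) in tumor, edge and neural spots of section 1 (red) and section 2 (blue), 1 value per section and region with its 95% Poisson interval. In the tumor the red points lie above the blue for all 8 genes, whereas at the edge the blue points lie above the red for *Igkc*, *Igha* and *Jchain*.

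*Igkc* is the constant region of the kappa light chain, the light chain of most mouse antibodies, on chromosome 6 from 70726435 to 70726754 (mm10). In section 1 it stood at 728 CPM in tumor, 37.9 at the edge and 11.9 in neural spots. In section 2 it stood at 3.89, 138 and 7.62. The gene was thus 187-fold higher in the tumor of section 1 than in that of section 2 (interval 155 to 229), yet 3.64-fold higher at the edge of section 2. At least 1 *Igkc* UMI was found in 93.6% of tumor spots in section 1 and in 10.2% in section 2. Since tumor spots were deeper, each spot was also thinned to 3000 UMIs. The share was then 57.2% of tumor spots against 3.26% of neural spots in section 1, and 0.623% against 1.67% in section 2, where the edge had 10.1%.

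*Igha*, the heavy chain of IgA, lies on chromosome 12 from 113256204 to 113260236. It followed *Igkc*, with 240, 8.65 and 5.71 CPM in tumor, edge and neural spots of section 1. In section 2 the values were 2.00, 101 and 5.19. *Ighg2b*, the heavy chain of IgG2b, is on the same chromosome from 113304314 to 113307933. It was found at 37.1 CPM in the tumor of section 1, 4.39 at its edge and 3.37 in neural spots. In section 2 it was not higher at the edge: the values were 1.67, 1.18 and 2.14, with overlapping intervals.

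*Jchain* encodes the joining chain that links IgA into dimers and IgM into pentamers, and lies on chromosome 5 from 88519809 to 88527897. Its levels were 71.6 CPM in tumor, 3.64 at the edge and 3.93 in neural tissue of section 1, and 1.89, 17.3 and 2.99 in section 2. *Mzb1*, a chaperone of the endoplasmic reticulum that helps B and plasma cells fold antibody, gave few UMIs. Its level was 6.97, 2.51 and 2.06 CPM in section 1, and 1.67, 1.38 and 1.67 in section 2. The *Igkc*-rich edge of section 2 held 14 *Mzb1* UMIs, and its level there (interval 0.752 to 2.31) was not above the 1.67 of neural spots.

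*Cd79a* and *Cd79b*, which lie on chromosome 7 from 24897497 to 24901858 and on chromosome 11 from 106311341 to 106314562, encode the signaling chains of the B cell receptor. *Ms4a1*, on chromosome 19 from 11249679 to 11266149, encodes CD20, a surface protein of B cells that plasma cells lack. *Cd79a* was 26.4, 6.77 and 3.84 CPM in tumor, edge and neural spots of section 1, and 1.20, 0.884 and 2.30 in section 2. *Cd79b* was 28.9, 10.0 and 7.72 in section 1, and 2.98, 3.93 and 4.63 in section 2. *Ms4a1* was 11.7, 3.76 and 3.42 in section 1, and 0.872, 1.08 and 1.67 in section 2. In section 2 none of the 3 was higher at the edge than in neural spots, as *Igkc*, *Igha* and *Jchain* were, and all 3 were lowest in tumor or edge spots.

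A region change common to both replicates was tested with edgeR's quasi-likelihood test on UMIs summed per section and region. The section was a block. None of the 8 genes passed an adjusted p of 0.05 in any comparison. Over all genes, 28.7% of the 19219 tested were called for tumor against neural, 15.7% for edge against neural and 0% for tumor against edge, where 1698 genes had an unadjusted p under 0.05. The counts were 2564 higher and 2951 lower in tumor than in neural spots, and 1669 and 4915 when counts were scaled by library size alone. *Igkc* had a fitted log2 fold change of 4.99 for tumor over neural (SE 2.94, edgeR adjusted p = 0.251) and 3.78 for edge over neural (SE 2.32, edgeR adjusted p = 0.323). The other 7 genes ranged from 0.93 for *Ms4a1* to 4.59 for *Igha* in tumor against neural, with edgeR adjusted p from 0.134 to 0.390. These fitted values are not changes seen in both sections. Within sections 1 and 2, *Igkc* gave 5.88 and -0.89 for tumor over neural, and *Igha* 5.27 and -1.19.

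In tumor against edge spots, *Igkc*, *Igha* and *Jchain* moved in opposite directions in the sections. Within section 1, *Igkc* was higher in tumor than in edge spots by 4.25 on the log2 scale (0.5 CPM added), and within section 2 it was lower, at -4.98. *Igha* gave 4.72 and -5.35, and *Jchain* 4.12 and -2.90. *Cd79b* (1.48 and -0.35) and *Ms4a1* (1.52 and -0.20) changed sign too, but their section 2 intervals overlapped between tumor and edge spots. *Ighg2b* (2.94 and 0.37), *Mzb1* (1.31 and 0.21) and *Cd79a* (1.89 and 0.30) were higher in tumor in both. Their section 2 intervals overlapped between tumor and edge spots too, with 12, 14 and 9 UMIs at that edge. For edge against neural, *Igkc* (1.63 and 4.09) and *Igha* (0.56 and 4.16) were higher at the edge in both. The *Igha* intervals overlapped in section 1, at 6.73 to 10.9 CPM at the edge and 4.74 to 6.82 in neural spots. For tumor against neural, 7 of the 8 genes were higher in section 1 and lower in section 2, and *Mzb1* was level in section 2 (0.0014). The intervals of *Ighg2b*, *Jchain* and *Ms4a1* overlapped between tumor and neural spots of section 2. The direction in section 2 holds relative to total UMIs. Per spot there, where tumor spots were deeper, all 8 genes were higher in tumor than in neural spots, by 0.57 to 1.95 (log2). The calls depended on the test and on the border: DESeq2 called *Igkc* (adjusted p = 0.00241), *Jchain* (0.0211) and *Ighg2b* (0.0439) for tumor over neural, and *Igkc* for edge over neural (0.0359). With the tumor mass set by total UMIs, edgeR called *Igkc* (adjusted p = 0.0261) and *Igha* (0.0483) for tumor over neural. These calls are to be read beside those over all genes. DESeq2 called 6843 of 19219 genes for tumor against neural and 4925 for edge against neural. With the border by total UMIs, edgeR called 5602 of 19117 for tumor against neural.

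**Figure D2:**
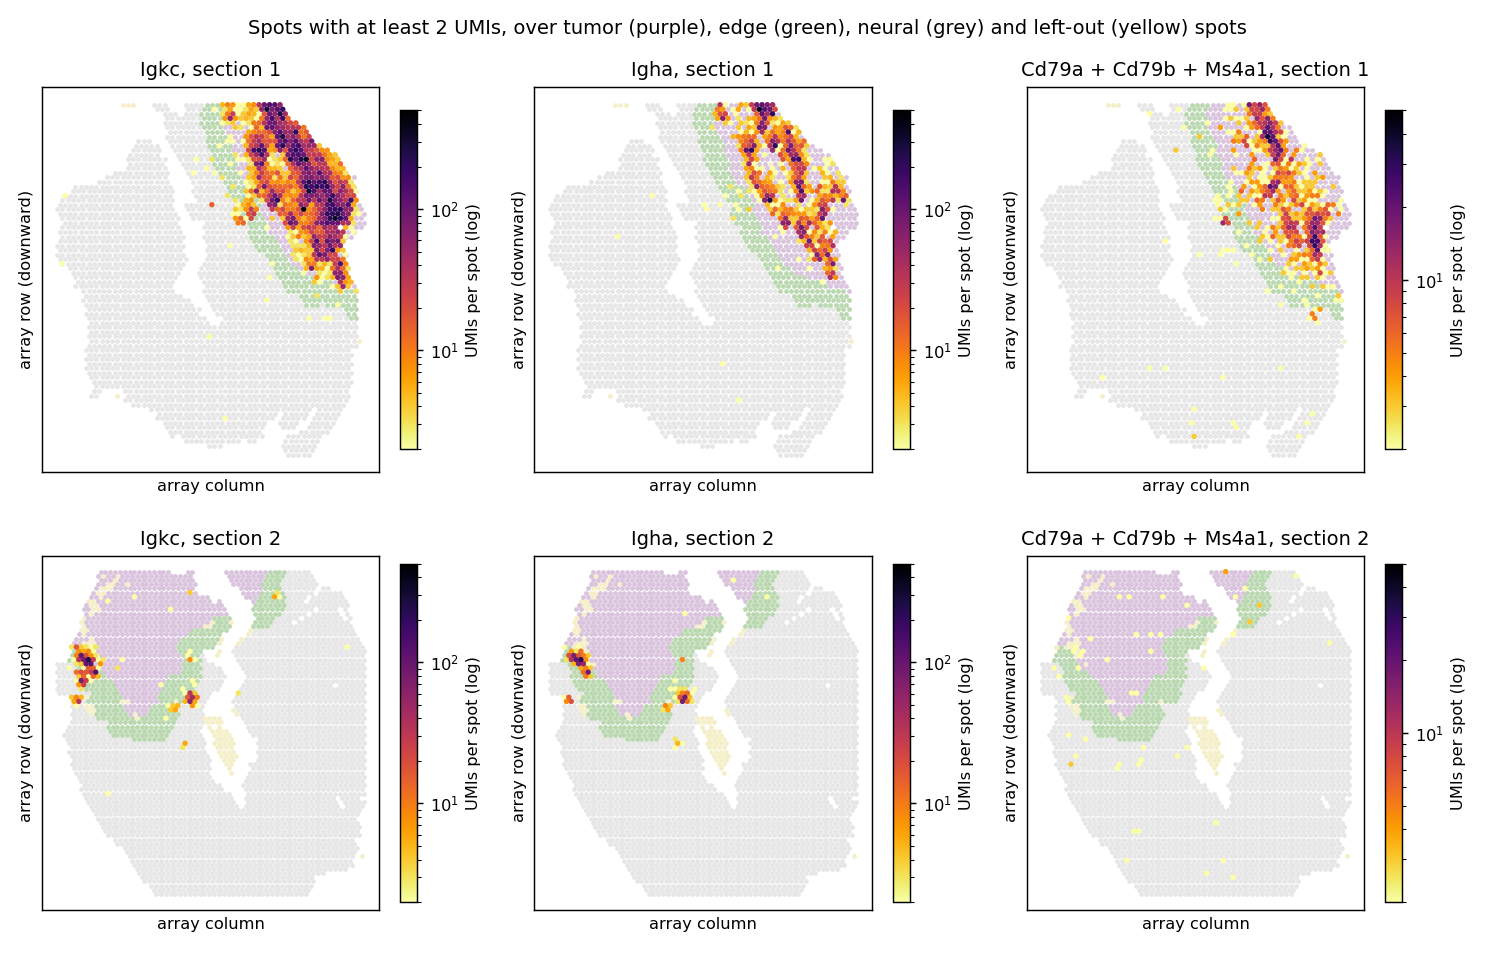
Array maps of spots with at least 2 UMIs of *Igkc*, *Igha* or the sum of *Cd79a*, *Cd79b* and *Ms4a1* (columns) in section 1 (top) and section 2 (bottom), colored by UMIs per spot on a log scale over the regions. Section 1 shows bands through the tumor in all 3 maps, while section 2 shows patches of *Igkc* and *Igha* at the edge and scattered single spots of B cell genes.

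On the array, *Igkc* of section 1 formed 1 main patch. Spots with at least 10 *Igkc* UMIs that touched each other made 7 patches. The largest had 367 spots, 366 of them tumor, and 24131 *Igkc* UMIs, or 93.8% of the section's total. The median *Igkc* count was 15 in tumor spots of section 1, and 0 in tumor and in edge spots of section 2. The cut of 10 is thus looser for section 1, and the patches of the sections are not like for like. In section 2 there were 4 patches. The largest had 20 spots, 18 of them edge, with 1120 *Igkc* UMIs (62.2% of the section), 715 of *Igha*, 124 of *Jchain* and 65 of *Ighg2c*, the IgG2c heavy chain. It held 2 UMIs each of *Mzb1*, *Cd79a* and *Ms4a1*, 5 of *Cd79b*, 1 of *Ighg2b* and 4 of *Ighm*, the IgM heavy chain. The second patch had 5 spots with 163 *Igkc*, 200 *Igha* and 19 *Jchain* UMIs, and none of *Cd79a*, *Ms4a1* or *Ighm*.

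The genes differed in how few spots carried them. In section 1, 50% of the UMIs lay in 75 spots for *Igkc*, 40 for *Igha*, 17 for *Ighg2b*, 65 for *Jchain*, 82 for *Cd79a* and 140 for *Cd79b*. In section 2 it took 8 spots for *Igkc*, 6 for *Igha* and 27 for *Jchain*, but 52 for *Cd79a* with its 118 UMIs. Moran's I, which is near 0 where neighboring spots are unrelated and nears 1 where they are alike, was 0.73 for *Igkc* over tumor spots of section 1, 0.62 for *Ighg2b*, 0.57 for *Cd79a*, 0.51 for *Igha*, 0.49 for *Jchain*, 0.41 for *Ms4a1*, 0.37 for *Cd79b* and 0.17 for *Mzb1*. The T cell gene *Cd3e* gave 0.067 over the same spots and the myeloid gene *Lyz2* 0.11, although *Cd3e* had more UMIs there (1979) than *Cd79a* (913). Over tumor spots of section 2 it was 0.054 for *Igkc* and 0.071 for *Igha*. Over all kept spots of section 2, edge included, it was 0.53 for *Igkc*, 0.51 for *Igha* and 0.19 for *Jchain*. It was between -0.0056 and 0.010 for *Ighg2b*, *Mzb1*, *Cd79a*, *Cd79b* and *Ms4a1*, which had only 93 to 284 UMIs each in that section. These are descriptions of 1 section each and carry no test.

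**Figure D3:**
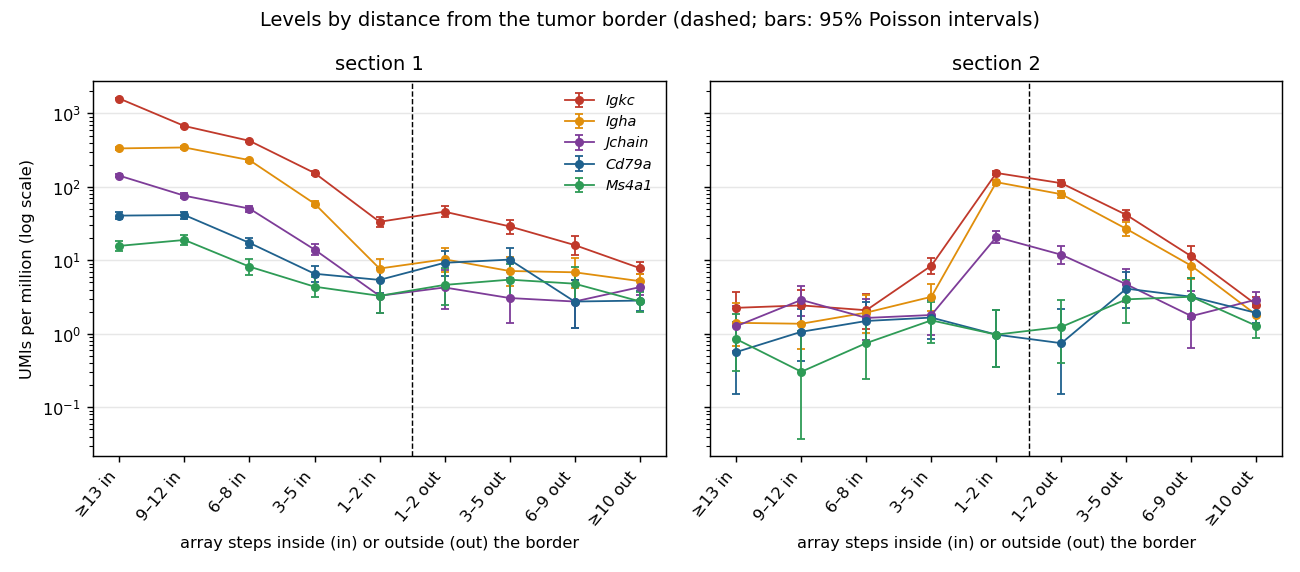
CPM (log scale, 95% Poisson intervals) of 5 genes by array steps inside or outside the tumor border (dashed) in each section. In section 1 *Igkc* climbs from 33.5 just inside the border to 1591 in the deepest spots, and in section 2 it peaks at 155 just inside the border. In section 2, 25.5% of edge spots had an *Igkc* UMI.

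Distance from the border showed the same contrast in steps. In section 1 *Igkc* was 7.86 CPM at 10 or more steps outside the tumor and 46.0 at 1 to 2 steps outside. Inside, it was 33.5 at 1 to 2 steps, 424 at 6 to 8 steps and 1591 at 13 or more. *Igha* reached 344 at 9 to 12 steps inside and did not climb further (334 deeper in). *Cd79a* went from 5.42 just inside the border to 41.4 and 40.7 in the 2 deepest bins, and *Ms4a1* from 3.29 to 18.9 and 15.8. The rise was not steady across the border: *Cd79a* was 9.26 at 1 to 2 steps outside. For *Igkc* and *Cd79a* the intervals just outside and just inside overlapped. In section 2 *Igkc* was 155 at 1 to 2 steps inside, 112 at 1 to 2 steps outside, 41.5 at 3 to 5 steps outside and 2.49 at 10 or more. That peak is not an even rim: 97 of the 380 edge spots had an *Igkc* UMI. The 20-spot patch held 62.2% of the section's *Igkc*. Deep in that tumor, at 13 or more steps, *Igkc* was 2.26 and *Cd79a* 0.565.

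Antibody class was read from the 7 heavy chain genes measured. Probes differ between genes, so their shares are compared between places and not with each other. In the tumor of section 1, *Ighm* made up 42.9% of 20756 heavy chain UMIs, *Igha* 40.0%, *Ighg2b* 6.18%, *Ighd* (IgD, of naive B cells) 4.48%, *Ighg3* 3.36%, *Ighg2c* 2.83% and *Ighg1* 0.279%. At the edge of section 2, *Igha* made up 86.1% of 1200 heavy chain UMIs, *Ighm* 3.83%, and *Ighg2c* had 72 UMIs. In neural spots *Ighm* held 71.2% and 59.8% in sections 1 and 2, at 54.1 and 22.1 CPM. Its share was 53.5% at the edge of section 1 and 40.6% in the tumor of section 2. In neural spots its UMIs came to 455% and 290% of those of *Igkc* in sections 1 and 2. In the tumor they came to 35.4% and 144%, and at the edge to 77.5% and 3.28%. Over all kept spots, Pearson's r of *Ighm* with *Igkc* on log levels was 0.60 in section 1 and -0.038 in section 2. Whether the *Ighm* signal of neural spots comes from B cells was not tested.

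**Figure D4:**
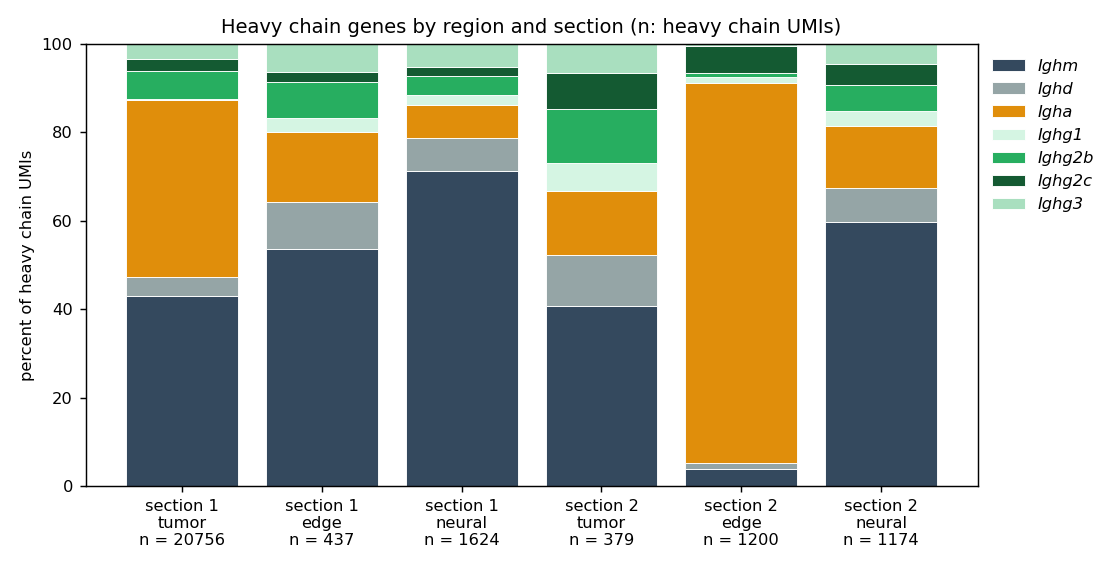
Share of heavy chain UMIs (percent, stacked bars) held by each of 7 heavy chain genes in each region and section, with the number of heavy chain UMIs (n) under each bar. *Igha* takes 86.1% at the edge of section 2 and 40.0% in the tumor of section 1, where *Ighm* takes 42.9%.

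Spots differed in the class that led them, by plain UMI counts, which unequal probes may shift. Of 301 tumor spots with at least 20 heavy chain UMIs in section 1, 160 were led by *Ighm*, 118 by *Igha*, 10 by *Ighg2b*, 7 by *Ighg2c* and 6 by *Ighg3*. Most of them were mixed: over 80% of the heavy chain UMIs came from *Igha* in 33 spots, *Ighm* in 29, *Ighg3* in 2 and *Ighg2b* in 1. Of 11 such edge spots in section 2, 10 were led by *Igha* and 1 by *Ighg2c*. The spot with the most *Ighg2b* in section 1 had 177 UMIs of it, 12.7% of the section's total, and 17 of *Igha*, while its 6 neighbors had 12 *Ighg2b* UMIs each on average. The spot with the most *Igha* had 328, with 17 of *Ighm* and none of *Ighg2b*. In section 2 the richest spot had 219 *Igha*, 238 *Igkc* and 25 *Jchain* UMIs, with none of the other 6 heavy chains and none of *Mzb1*, *Cd79a*, *Cd79b* or *Ms4a1*. A second edge spot of section 2 had 45 *Ighg2c* and 79 *Igkc* UMIs and no *Igha*, which was 27.1% of the section's *Ighg2c*.

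Light chains showed spots apart as well. *Igkc* was 91.6% of 27477 light chain UMIs in the tumor of section 1 and 97.6% of 1438 at the edge of section 2. The lambda gene *Iglc1* was 7.01% and 0.556%. The richest *Iglc1* spot of section 1 had 183 *Iglc1* UMIs against 28 of *Igkc*, the reverse of the usual order, and 89 of *Igha*. The spot with the most *Igkc* of all, 458 UMIs, had 23 heavy chain UMIs in total (16 *Ighm*, 4 *Igha*, 2 *Ighd* and 1 *Ighg2b*) and 22 of *Jchain*. By comparison, the spot with the most *Ighm* had 330 *Igkc* and 239 *Ighm* UMIs. The 458-UMI spot stood alone, since its 6 neighbors had 26 *Igkc* UMIs each on average and 60 at most.

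**Figure D5:**
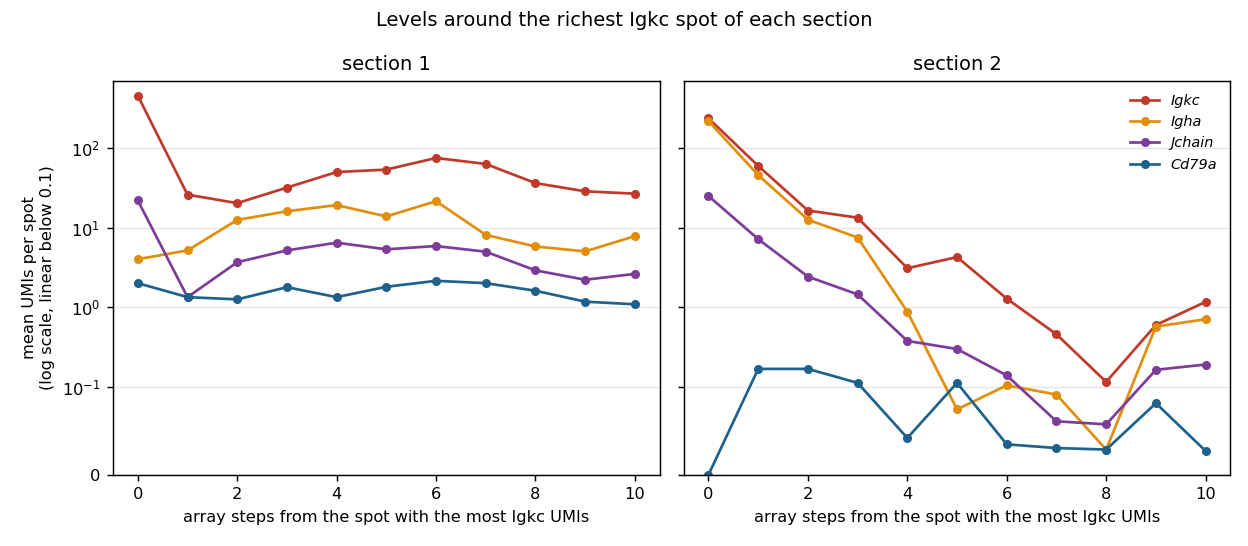
Mean UMIs per spot (log scale, linear below 0.1) of 4 genes in rings of 0 to 10 array steps around the spot with the most *Igkc* in each section. In section 1 *Igkc* drops from 458 to 26 at 1 step and rises again in rings farther out, and in section 2 it goes from 238 to 59.8 at 1 step and 0.114 at 8 steps, with *Igha* beside it.

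Immunoglobulin and B cell surface genes were set against each other spot by spot in the tumor of section 1. Across its 638 tumor spots, which share 1 library and vary in depth, Pearson's r on log levels was 0.79 for *Igkc* with *Jchain*, 0.70 for *Igha* with *Jchain* and 0.64 for *Igkc* with *Igha*. It was 0.56 for *Cd79a* with *Ms4a1* and 0.51 for *Cd79a* with *Cd79b*. Values were 0.45 for *Igkc* with *Cd79a*, 0.17 for *Igha* with *Ms4a1* and 0.03 for *Igha* with *Ighg2b*. Pairs across the 2 kinds of gene were not always weaker than pairs within. *Cd79a* with *Ighm* gave 0.49, while *Igkc* with *Ighg2b* gave 0.41 and *Cd79b* with *Ms4a1* 0.39. The 5% of tumor spots richest in *Igkc*, *Igha* and *Ighg2b* (32 spots) and the 5% richest in *Cd79a*, *Cd79b* and *Ms4a1* (32 spots) had 3 spots in common. In section 2, where both groups rest on few UMIs, 7 of 33 were shared. Groups of 5% drawn without regard to each other would share 5% of their spots on average. Neither overlap was below that, so the overlaps do not show that the groups keep apart.

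The spots rich in B cell surface genes had 464 CPM of *Cxcl13*, the chemokine that draws B cells into follicles, against 256 in the immunoglobulin-rich spots and 167 over all tumor spots of section 1. Their 13 T cell genes summed to 585 CPM, against 448 and 463. *Cxcl13* was at 0.545 CPM in the tumor of section 2.

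Over all 3315 kept spots of section 1, the genes with a pattern most like *Igkc*, the members aside, were *Dpt* (r = 0.76), *Ecrg4* (0.75), *Dcn* (0.74), *Cxcl13* (0.73) and *Ogn* (0.73). *Dpt*, *Dcn* and *Ogn* encode matrix proteins of fibroblasts, and these genes share with *Igkc* the tumor of section 1. For *Cd79a* they were *Cxcl13* (0.42), *Ighd* (0.39), *H2-DMb2* (0.39), *Ighj1* (0.36) and *Dpt* (0.36). In section 2, over 3999 spots, those most like *Igkc* included *Gpnmb* (0.24), *Apoe* (0.22), *Wfdc17* (0.21) and *Trem2* (0.20), several of them genes of macrophages, all weak. For *Cd79a* in section 2 the highest r was 0.15.

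The wider lists of the B cell lineage behaved as follows. Counts of called genes are to be read beside the 28.7% of all genes called for tumor against neural and 15.7% for edge against neural. Of 11 immunoglobulin constant genes, none was called in any comparison, and their median log2 fold change was 1.20 for tumor over neural, beside -0.14 over all genes tested. The 3 with the highest level in tumor were *Igkc*, *Ighm* (257 CPM in section 1 and 5.59 in section 2) and *Igha*. Of 20 mature B cell genes tested, *Blnk*, an adaptor of the receptor signal, rose in tumor (log2 fold change 2.09, edgeR adjusted p = 0.00634) and at the edge (1.82, edgeR adjusted p = 0.0228). *Ebf1*, a B cell transcription factor that other cells also use, fell in tumor (-1.64) and at the edge (-1.28). No other gene of that list was called in either comparison. *Blnk* was as high in the tumor of section 2 (65.1 CPM) as in that of section 1 (53.4), although *Cd79a* was not.

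Of 18 plasma cell program genes, 6 rose in tumor against neural tissue and 1 fell, where 28.7% of all genes were called. The 6 were *Sdc1*, which encodes CD138 (log2 fold change 4.31), *Fkbp11* (2.79), *Prdm1*, the plasma cell regulator BLIMP1 (1.97), *Edem1* (1.72), *Txndc5* (1.67) and *Creld2* (1.03), and *Pim2* fell (-1.03). At the edge the same 6 rose, *Tent5c* rose too (1.76) and *Pim2* fell (-1.10), with a list median of 1.08 beside -0.09 over all genes. Over all genes, 15.7% were called there. None of the 7 that rose is specific to plasma cells: several serve protein folding in many secretory cells, and CD138 is also made by epithelium. *Sdc1* stood at 847 CPM in the tumor of section 2, where *Igkc* was at 3.89, and at 187 in that of section 1. Summed, the list was at 1331 CPM in the main *Igkc* patch of section 1 and at 1330 over all tumor spots of that section, which include the patch. Over the tumor and edge spots outside the patch the list was at 1434. In the 20-spot patch of section 2 it was lower, 1251 CPM against 1515 over all edge spots of that section, which include the patch.

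Of 19 recruitment and survival genes, *Cxcr4*, the receptor for CXCL12 on B and plasma cells and on many other cells, rose in tumor (2.30, edgeR adjusted p = 0.0264) and at the edge (2.54, edgeR adjusted p = 0.0352). It was the only gene of that list called in either comparison, beside 28.7% and 15.7% of all genes. Its ligand *Cxcl12* was at 275 CPM in the tumor of section 1 and 7.59 in that of section 2, and *Tnfsf13b* (BAFF, a B cell survival factor) at 42.8 and 9.80. Of 13 T cell genes none was called for either comparison. The 3 with the highest level in tumor were *Trac* (65.6 and 2.11 CPM in sections 1 and 2), *Cd3e* (57.2 and 1.23) and *Trbc2* (55.2 and 5.12). The whole T cell list summed to 463 CPM in the tumor of section 1 and 23.5 in that of section 2, and at the edge, where *Igkc* was higher in section 2, to 257 and 38.4.

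Lists of other cells were read beside the patches. The main *Igkc* patch of section 1 lay almost wholly in the tumor and is set beside all tumor spots of that section, which include it. The macrophage list summed to 11400 CPM in the patch and 11488 over the tumor. The fibroblast and meningeal list summed to 55626 and 56025. The patch held 20268740 UMIs and the tumor 34581372, which draws these values together. The endothelial list was lower in the patch of section 1, 196 against 235 CPM, and the microglial list was at 1713 and 1663. Over the 518 tumor and edge spots outside the patch, the macrophage list was at 13523 CPM and the fibroblast and meningeal list at 50695.5. The endothelial list was at 325 there and the microglial list at 1612. The 20-spot patch of section 2 lay mostly at the edge and is set here beside all edge spots of that section, which include it. The fibroblast and meningeal list was at 2982 CPM in the patch and 1047 over the edge, the endothelial list at 626 and 447, and the microglial list at 1572 and 1151. The macrophage list was lower in the patch, 7536 against 12790, as was the epithelial list, 5327 against 8434, and the neural list was alike, 4247 and 4242. No gene of these lists was at 0 in the tumor or edge of either section. The part of these cells in the *Igkc* patches was not tested.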

How the data were processed

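Space Ranger 2.1.1 with mm10, per the submitters' processing notes, gave the counts. The values deposited are raw UMI counts for each spot and gene, not normalized: 63986887 UMIs over 3406 spots in section 1 and 71878333 over 4017 in section 2. The authors' clusters were not used here. Spots under 500 UMIs or 10 genes (91 and 18) were left out, which follows the study's filter. Regions came from 29 neural genes, a threshold pooled over sections (Otsu) and connected groups of at least 50 spots; 6 and 110 spots fell in no region. The sections share 3096 barcodes, which mark array positions and not cells. Related immunoglobulin genes may have shared or lost UMIs in the authors' counting.

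UMIs were summed into 6 libraries (TMM factors 0.873 to 1.21) and fitted with edgeR 4.0.16 (filterByExpr, robust glmQLFit, glmQLFTest) in R 4.3.3, all regions in 1 fit with 2 residual degrees of freedom and Benjamini-Hochberg adjustment over all genes. The SE is the fold change over the root of F. The section pairs its own regions: the dispersion common to all genes was 0.0968 with this block and 0.183 if it was left out. The fit was first tested on simulated data. DESeq2 1.42.0, other scalings, borders and filters were alternatives. Levels are plain CPM, UMIs per 1000000 UMIs of a region. At these depths counting error is small for abundant genes, and for them the number of sections, 2, sets the precision. Counting error is not small for the rarer members in section 2. *Ighg2b*, *Mzb1*, *Cd79a* and *Ms4a1* had 9 to 14 UMIs each at its edge. Intervals (exact Poisson, 95%) cover counting error alone. Maps and distances used Python 3.11.15 with numpy 2.4.6, scipy 1.17.1, pandas 2.3.3 and matplotlib 3.10.9. Coordinates are RefSeq's for GRCm38.p6. The members and lists were chosen with earlier results of these data known. Named genes were the 8 members, the called genes of each lineage list or else its 3 highest in tumor, and the 5 most correlated with *Igkc* and *Cd79a*, of which 1 is not reported here; *Cxcl12*, *Tnfsf13b*, *Lyz2* and the single spots described were chosen after their values were seen.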

Additional observations from a re-analysis of the deposited data

Results flagged for a closer look

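Between the sections, *Igkc* in tumor against edge spots was 4.25 in section 1 and -4.98 in section 2 on the log2 scale, *Igha* 4.72 and -5.35, and *Jchain* 4.12 and -2.90. *Igha* in tumor against neural spots was 5.27 and -1.19. Every 1 of these moved in opposite directions in the sections, and the difference itself was not tested, since each section is 1 sample.

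The 110 spots of section 2 that fell in no region held *Igkc* at 20.1 CPM (interval 14.8 to 26.7) and *Igha* at 17.6 (12.7 to 23.8), both above the 7.62 and 5.19 of its neural spots. The choroid plexus list summed to 49758 CPM in those spots and to 354 in neural spots. In section 1 the 6 such spots held *Igkc* at 67.3 CPM, which rests on 3 UMIs in 1 spot.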

How the results depend on the processing

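No member was called by edgeR in the other settings run, apart from the border by total UMIs. That border called 2 of the 8 for tumor against neural, beside 5602 of 19117 genes. DESeq2 called 3 of the 8 for tumor against neural, beside 6843 of 19219 genes. It called 1 for edge against neural, beside 4925 of 19219. Over all genes, tumor against neural gave 3487 calls with no replicate block. Edge against neural gave 4925 with DESeq2, 1858 with no replicate block and 0 with the border by total UMIs. Tumor against edge gave 787 with DESeq2, 494 with the neural threshold doubled and 2339 with the border by total UMIs. The cause of these moves was not tested. The ratio of sections in the tumor was 90.3 per spot, 57.4 without the richest 1% of spots and 14.9 by total UMIs. It was 86.7 and 55.5 with the threshold halved and doubled. Over all kept spots, and so not in the tumor alone, the ratio was 11.1. The neighbor ratio (share of spots with a member UMI next to such a spot, over that of all spots) was 1.60 and 1.48 in sections 1 and 2. Thinned to 3000 UMIs it was 2.51 and 2.95, thinned to 1000 UMIs 4.00 and 7.75, with at least 2 UMIs 2.93 and 4.08, and within tumor and edge spots 1.03 and 1.08. The ratio cannot exceed the inverse of the share of spots with a UMI, so settings and sections are not comparable by it. That share was 90.3% and 44.2% within tumor and edge spots, and 13.1% and 2.82% after thinning to 1000 UMIs. Moran's I of the summed members within tumor and edge spots was 0.81 and 0.62.

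Of 360 values of single members, 328 kept direction and side of the threshold, 6 passed it newly, 7 moved by over 1 SE and 19 changed sign, none of them called. The sign changes were for edge against neural. *Ighg2b* turned to 0.19 with no replicate block, 0.17 with the edge at 4 steps, 0.084 with the threshold halved, 1.29 with the border by total UMIs and 1.33 in raw UMIs per spot. *Cd79a* turned to 0.49 with no replicate block, 0.29 with the edge at 4 steps, 0.50 with the threshold doubled, 0.92 by total UMIs and 1.29 in raw UMIs. *Ms4a1* turned to 0.12 with no replicate block, 0.20 and 0.42 with the edge at 1 and 4 steps, 0.29 with the threshold doubled, 0.90 by total UMIs and 1.33 in raw UMIs. *Jchain* turned to -0.0068 without the richest 1% of spots, and with scaling by library size alone *Mzb1* turned to -0.048 and *Cd79b* to -0.0083.

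Leaving out a section gives values with no test and no counts of called genes. For tumor against neural the remaining section gave -0.89 to 5.88 for *Igkc*, -1.19 to 5.27 for *Igha*, -0.28 to 3.28 for *Ighg2b*, -0.55 to 4.02 for *Jchain*, -0.72 to 2.63 for *Cd79a*, -0.56 to 1.84 for *Cd79b* and -0.66 to 1.64 for *Ms4a1*. For edge against neural it gave 0.34 to -0.65 for *Ighg2b*, -0.10 to 2.35 for *Jchain*, 0.23 to -0.21 for *Mzb1*, 0.74 to -1.02 for *Cd79a*, 0.36 to -0.21 for *Cd79b* and 0.12 to -0.46 for *Ms4a1*. For tumor against edge it gave -4.98 to 4.25 for *Igkc*, -5.35 to 4.72 for *Igha*, -2.90 to 4.12 for *Jchain*, -0.35 to 1.48 for *Cd79b* and -0.20 to 1.52 for *Ms4a1*.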
